A study of Bos taurus with 30 samples.

Results

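The miR-181 family was described in the testes of 30 Holstein-Friesian bull calves. Its members were taken by name from the deposited miRNA table: bta-miR-181a, bta-miR-181b, bta-miR-181c and bta-miR-181d, 4 of 1030 bovine miRNAs, and no other row carried the name miR-181. The prefix bta, for cattle, is left out of most names that follow. All 4 passed the filter on low values and were among the 387 miRNAs tested. Small RNA from each testis was sequenced in 1 library per calf, with 15 calves on a High diet and 15 on a Moderate diet. High calves were given 1.5 kg (10 L) of milk replacer daily and concentrates without limit, and were meant to gain 1.0 kg daily. Moderate calves were given 0.5 kg (4 L) of milk replacer and 0.5 kg of concentrates daily, and were meant to gain 0.5 kg daily. The diets began at 2 weeks of age, and testes were taken at 12 weeks. All 30 calves were of the same breed and sex and carried the developmental stage label calf. The libraries were made from whole testis, so fewer cells of a type and less miRNA per cell cannot be told apart.

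A miRNA guides a silencing complex to mRNAs that pair with its seed, a short stretch near its 5′ end, and lowers their stability and translation. The miR-181 members share 1 seed and so are predicted to bind largely the same sites, and they differ in a few bases elsewhere. In mammals they are made from paired hairpins: miR-181a with miR-181b from 2 separate loci, and miR-181c with miR-181d from another. miR-181a is best known from lymphocytes, where in mouse it tunes T cell receptor signalling, and the family is also abundant in brain and in endothelium.

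In RefSeq's genes for cattle (assembly ARS-UCD2.0) there were 6 miR-181 hairpin genes in 3 pairs, and all 4 members matched by name. MIR181A-1 neighboured MIR181B-1, MIR181A-2 neighboured MIR181B-2, and MIR181C neighboured MIR181D. MIR181A-2 and MIR181B-2 overlapped the span of NR6A1, the gene of an orphan nuclear receptor known as germ cell nuclear factor. They also overlapped LOC100848407, a gene of a long noncoding RNA. MIR181C and MIR181D overlapped the span of NANOS3, the gene of an RNA-binding protein needed to maintain germ cells. Strand was not compared, so whether the hairpins share a transcript with any of these genes was not tested. Coordinates are not given, because no source used here names the build behind the files. Mature miR-181a and miR-181b can each come from 2 hairpins, so their levels cannot be split between loci.

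Values are given as deposited, in CPM, read counts scaled to a common library size, after trimmed-mean-of-M-values (TMM) scaling. Depth ranged from 6.0003 to 19.98 M reads per library. Even the scarcest member, miR-181d, was read 365 to 2982 times per library, so counting error was small beside the spread between calves. miR-181c and miR-181d came out as whole reads in all 30 libraries. miR-181a came out with a fraction of a read in 13 libraries and miR-181b in 16. Some of their reads had thus been divided, in a way the sources used here do not give, and values of members this alike are uncertain to that extent.

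Both labels and libraries limit what follows. The diet is that of the diet characteristic, which has the same diet as the column ending for all 30 libraries, while the titles give the other diet for 18. Moderate replicate 5 stood apart: miR-10b, an abundant miRNA of a HOX cluster, accounted for 84.8% of all its reads, while the share elsewhere was 37.0% to 49.0%. Most results are therefore given with and without that library. DESeq2 was run only with it.

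miR-181a was the dominant member by far. It took 2.57% ± 0.22 of all reads in High testes and 2.32% ± 0.46 in Moderate testes (SD, n = 15 each). It ranked between 5 and 7 among all miRNAs in each of the 30 libraries. Within the family, miR-181a made up 90.9% ± 0.69 of the summed value in High testes and 90.3% ± 0.94 in Moderate testes. The other 3 members were thus minor in every library, since miR-181a never fell under 88.3% of the family.

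miR-181b and miR-181c were next and could not be placed in order. miR-181b exceeded miR-181c in 7 of 15 High libraries and 6 of 15 Moderate libraries. Their median ranks over the 30 libraries were 53 and 51. miR-181b made up 4.32% ± 0.26 of the family in High testes and 4.60% ± 0.81 in Moderate testes. miR-181c made up 4.399% ± 0.57 in High testes and 4.69% ± 1.37 in Moderate testes.

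miR-181d was the scarcest in all 30 libraries, with a median rank of 118.5. It made up 0.383% ± 0.063 of the family in High testes and 0.462% ± 0.10 in Moderate testes. All 4 are read as whole short RNAs of like length, so CPM needs no correction for length, although ligation and mapping can favour one member over another.

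**Figure D1:**
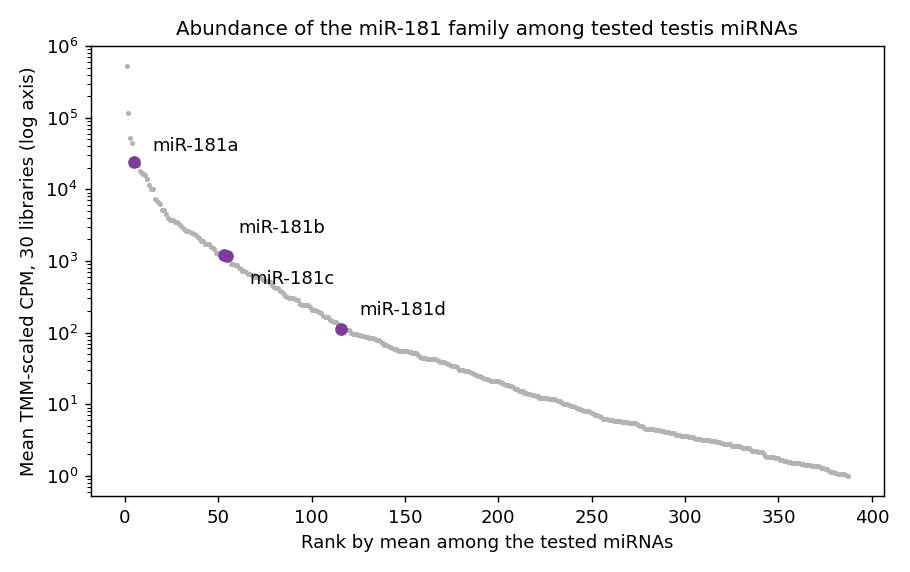
Mean level over 30 libraries (TMM-scaled CPM, log axis) of the 387 tested miRNAs against their rank. Purple points mark the family: miR-181a stands among the most abundant, miR-181b and miR-181c lie side by side, and miR-181d lies lower.

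None of the 4 members passed the diet test in limma at an adjusted p of 0.05, against 19 of 387 tested miRNAs (4.91%). At an unadjusted p under 0.05, 1 of the 4 stood out, miR-181d, against 82 of 387 miRNAs (21.2%). edgeR on the recovered reads called 0 of the 4 (27 of 387, 6.98%), and DESeq2 called 1, again miR-181d, which was lower (52 of 387, 13.4%, of which 32 lower, 8.27%). Without Moderate replicate 5, limma called 0 of the 4 (45 of 385, 11.7%) and edgeR 0 (51 of 385, 13.2%), with 1 at an unadjusted p under 0.05 in limma, miR-181d (115 of 385, 29.9%). In limma with all 30 libraries, 4 of 4 log2 fold changes were below 0, with a median of -0.08, beside a median of 0.03 over all tested miRNAs. With Moderate replicate 5 left out, 3 of 4 were below 0, with a median of -0.09, beside 0.00323 over all tested miRNAs.

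bta-miR-181a, the dominant member, ran from 21650 through a median of 24026 to 26963 CPM in High testes. In Moderate testes it ran from 18700 through 23893 to 37144 CPM. The groups overlapped fully, and the highest value was that of Moderate replicate 5. The log2 fold change was -0.03 (standard error 0.07, 95% confidence interval -0.17 to 0.11; limma adjusted p = 0.829). With Moderate replicate 5 left out it was 0.01 (interval -0.10 to 0.12).

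bta-miR-181b, the hairpin partner of miR-181a, ran from 990 through a median of 1142 to 1314 CPM in High testes. In Moderate testes it ran from 875 through 1149 to 2939 CPM, the last again in Moderate replicate 5. The High values all lay inside the Moderate range. The log2 fold change was -0.12 (standard error 0.11, interval -0.34 to 0.10; limma adjusted p = 0.559). Without Moderate replicate 5, where the next highest Moderate value was 1528 CPM, it was -0.03 (interval -0.16 to 0.11; limma adjusted p = 0.830).

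bta-miR-181c ran from 917 through a median of 1195 to 1513 CPM in High testes. In Moderate testes it ran from 373 through 1319 to 1565 CPM. Here Moderate replicate 5 was the lowest of all 30 libraries, and the median of the Moderate group was above 13 of the 15 High values. The log2 fold change was -0.04 (standard error 0.14, interval -0.32 to 0.24; limma adjusted p = 0.872). Leaving Moderate replicate 5 out gave -0.16 (standard error 0.08, interval -0.32 to 0.00445; limma adjusted p = 0.181).

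bta-miR-181d, the partner of miR-181c, had the clearest difference of the family. It ran from 74.2 through a median of 102 to 137 CPM in High testes. In Moderate testes it ran from 85.0 through 121 to 176 CPM. Means were 100.4 ± 19 CPM under High and 125 ± 28.8 CPM under Moderate (SD, n = 15 each). The groups overlapped, with 5 High libraries below every Moderate one and 4 Moderate libraries above every High one. The Moderate median was above 13 of the 15 High values.

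On the log2 scale miR-181d differed by -0.30 (standard error 0.11, interval -0.52 to -0.08; unadjusted p = 0.00984, limma adjusted p = 0.0820), the 46th smallest p of 387. The difference thus missed the threshold in limma. It was -0.32 in edgeR (adjusted p = 0.0745) and -0.34 in DESeq2 (adjusted p = 0.0474), which alone placed it past the threshold. Without Moderate replicate 5 it was -0.26 in limma (adjusted p = 0.0925) and -0.26 in edgeR (adjusted p = 0.0875, chosen after seeing the data). DESeq2 was not run without that library, so its call was not checked there. When each library was left out in turn, limma's adjusted p for miR-181d stayed between 0.0551 and 0.142 and its log2 fold change between -0.33 and -0.26. With the diet of the titles the difference was -0.02 (limma adjusted p = 0.981). It was -0.40 in the 12 libraries whose labels give 1 diet and -0.23 in the other 18 (limma adjusted p = 0.439 and 0.377). Leaving Moderate replicate 5 out of the 12 gave -0.30 (limma adjusted p = 0.359, chosen after seeing the data).

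**Figure D2:**
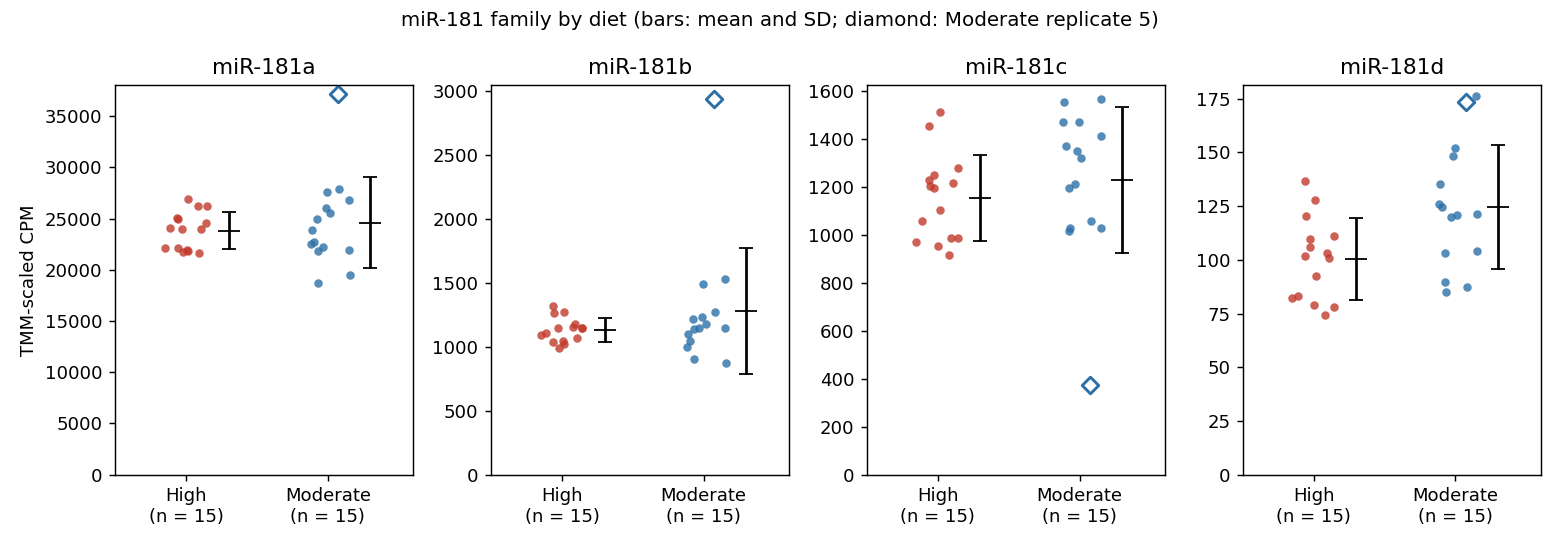
Level of each member (TMM-scaled CPM, y axis from 0) in 15 High and 15 Moderate libraries, 1 point per calf, with mean and SD; the diamond is Moderate replicate 5. Groups overlap for every member; the diamond is the highest for miR-181a and miR-181b and the lowest for miR-181c.

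Moderate replicate 5 affected the members unequally, and the sign depended on the scale. As deposited, miR-181a and miR-181b were higher in it than in any other library and miR-181c lower. As a share of reads, all 4 were lower in it than in any other library. miR-181a took 0.879% of its reads, against 2.10% to 2.90% elsewhere. miR-181c took 0.00883%, against 0.0926% to 0.168%, a larger gap than that of its partner miR-181d, at 0.00411% against 0.00812% to 0.0171%. Ratios within the library do not depend on scaling: the summed miR-181a and miR-181b were 73.3 times the summed miR-181c and miR-181d there, against 13.2 to 27.6 times in the other 29.

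On the deposited scale, other miRNAs also stood out in Moderate replicate 5. All deposited values of that library summed to 4224250 CPM, against 815635 to 1111450 CPM in the other libraries. The sums that follow are on that scale, and their order as shares of reads can differ. The red blood cell miRNAs miR-144, miR-451 and miR-486 summed to 7927 CPM there, against 755 to 3606 CPM elsewhere. Both arms of the endothelial miR-126 summed to 5125 CPM, against 8981 to 14721 CPM. The gonadal somatic miR-202 and miR-140 summed to 1893 CPM, against 3361 to 5057 CPM. The germ line list summed to 21.9 CPM, against 40.5 to 265 CPM, and the striated muscle list to 3.33 CPM, against 12.4 to 24.1 CPM. The leukocyte, smooth muscle, epithelial and neural sums lay within the range of the other 29 libraries as deposited, which does not show that their shares of reads did. The part of these miRNAs in the miR-181 values of this library was not tested.

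Dividing by library totals alone moved the median log2 fold change of all tested miRNAs by 0.18, to 0.22. Only 1 of the 4 log2 fold changes was then below 0. The members stood at 0.18 for miR-181a, 0.10 for miR-181b, 0.17 for miR-181c and -0.09 for miR-181d. Relative to that median they were at -0.03, -0.12, -0.04 and -0.30. Relative to the median of 0.03 under the deposited scaling they were at -0.06, -0.15, -0.07 and -0.33. Without Moderate replicate 5, the median under library totals was 0.07, beside 0.00323 as deposited. Then 2 of the 4 were below 0, miR-181c at -0.09 and miR-181d at -0.19 (chosen after seeing the data).

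**Figure D3:**
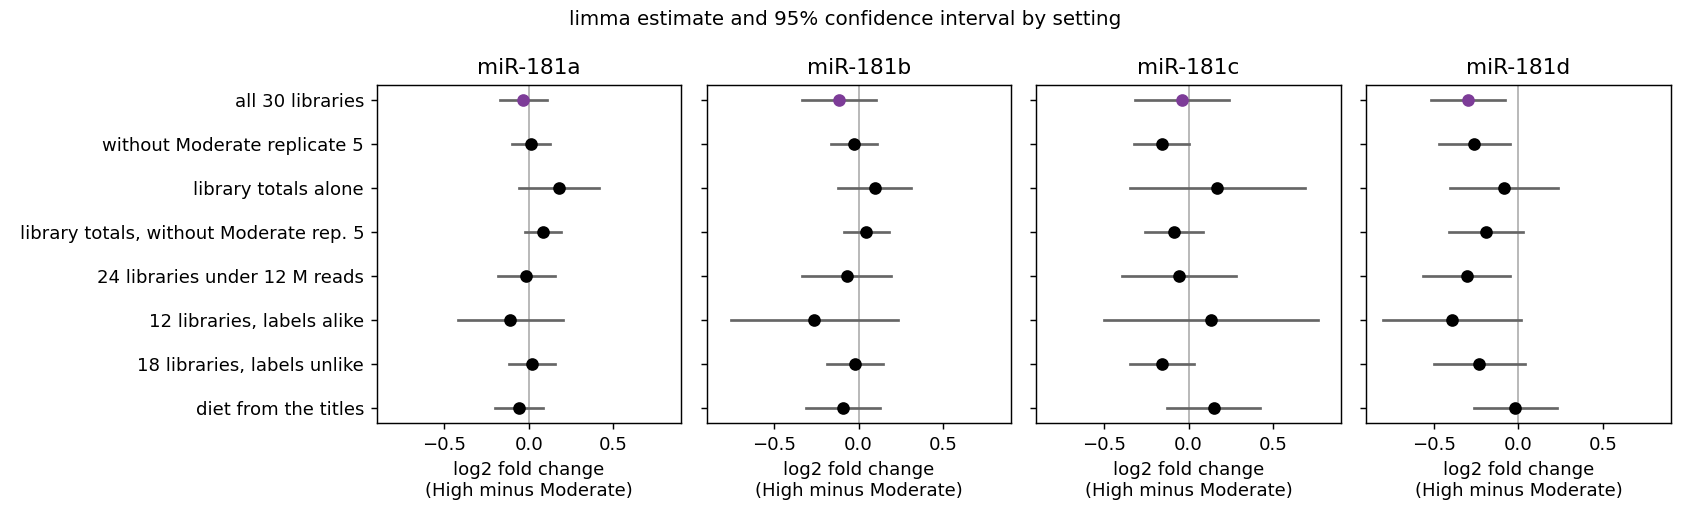
log2 fold change (High minus Moderate) of each member in limma under 8 settings, with 95% confidence intervals; the purple point is the value in all 30 libraries as deposited. Intervals of miR-181a, miR-181b and miR-181c include 0 in each setting shown; that of miR-181d lies below 0 in 3 of them and includes 0 in the others.

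Across calves, members rose and fell with their hairpin partner. Without Moderate replicate 5 (n = 29), miR-181a and miR-181b had Pearson's r of 0.82 and Spearman's rho of 0.79 on the log2 scale. The permutation p of both was 1e-05, the smallest that 100000 resamples can give, and 3e-05 after adjustment over the 6 pairs of members. miR-181c and miR-181d had r and rho of 0.91, with the same p-values. Leaving out the 2 libraries farthest from the median of the first partner left r at 0.74 and 0.89. The relation held within each diet: r was 0.70 and 0.88 for miR-181a with miR-181b in the 15 High and the 14 remaining Moderate calves, and 0.90 and 0.89 for miR-181c with miR-181d. Within the High calves the adjusted permutation p of these was 0.0120 and 6e-05, within the Moderate calves 0.00021 and 0.00018.

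Members from different pairs showed no such relation in these 29 libraries. The r of the 4 mixed pairs lay between 0.0617 for miR-181b with miR-181c and 0.26 for miR-181b with miR-181d, with adjusted permutation p between 0.363 and 0.752. For miR-181a with miR-181c, r was 0.13 and rho 0.15. The contrast with the partners was less clear within the 15 High calves. There r of the mixed pairs ran from 0.29 to 0.53, with adjusted permutation p from 0.0866 to 0.285. Within the 14 remaining Moderate calves it ran from -0.15 to 0.12, with adjusted permutation p from 0.828 to 0.984. A p above the threshold does not show that members of different pairs are unrelated. The points share library preparation and scaling. miR-181a and miR-181b each held divided reads, in 13 and 16 libraries. Whether reads were divided between these members is not known.

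With all 30 libraries, Moderate replicate 5 decided several of these values. miR-181a and miR-181b kept r of 0.89 and rho of 0.81. miR-181c and miR-181d had r of 0.21 (adjusted permutation p = 0.282) but rho of 0.74 (adjusted permutation p = 3e-05). miR-181b with miR-181c had r of -0.63 (adjusted permutation p = 0.0412), with rho of -0.0456, and r of 0.17 once the 2 farthest libraries were left out, so the negative r rested on that library. The same held for miR-181a with miR-181c, at -0.45 with all 30 libraries and 0.0420 without the 2 farthest. miR-181b with miR-181d had r of 0.44 (adjusted permutation p = 0.0298), and 0.30 without the 2 farthest.

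**Figure D4:**
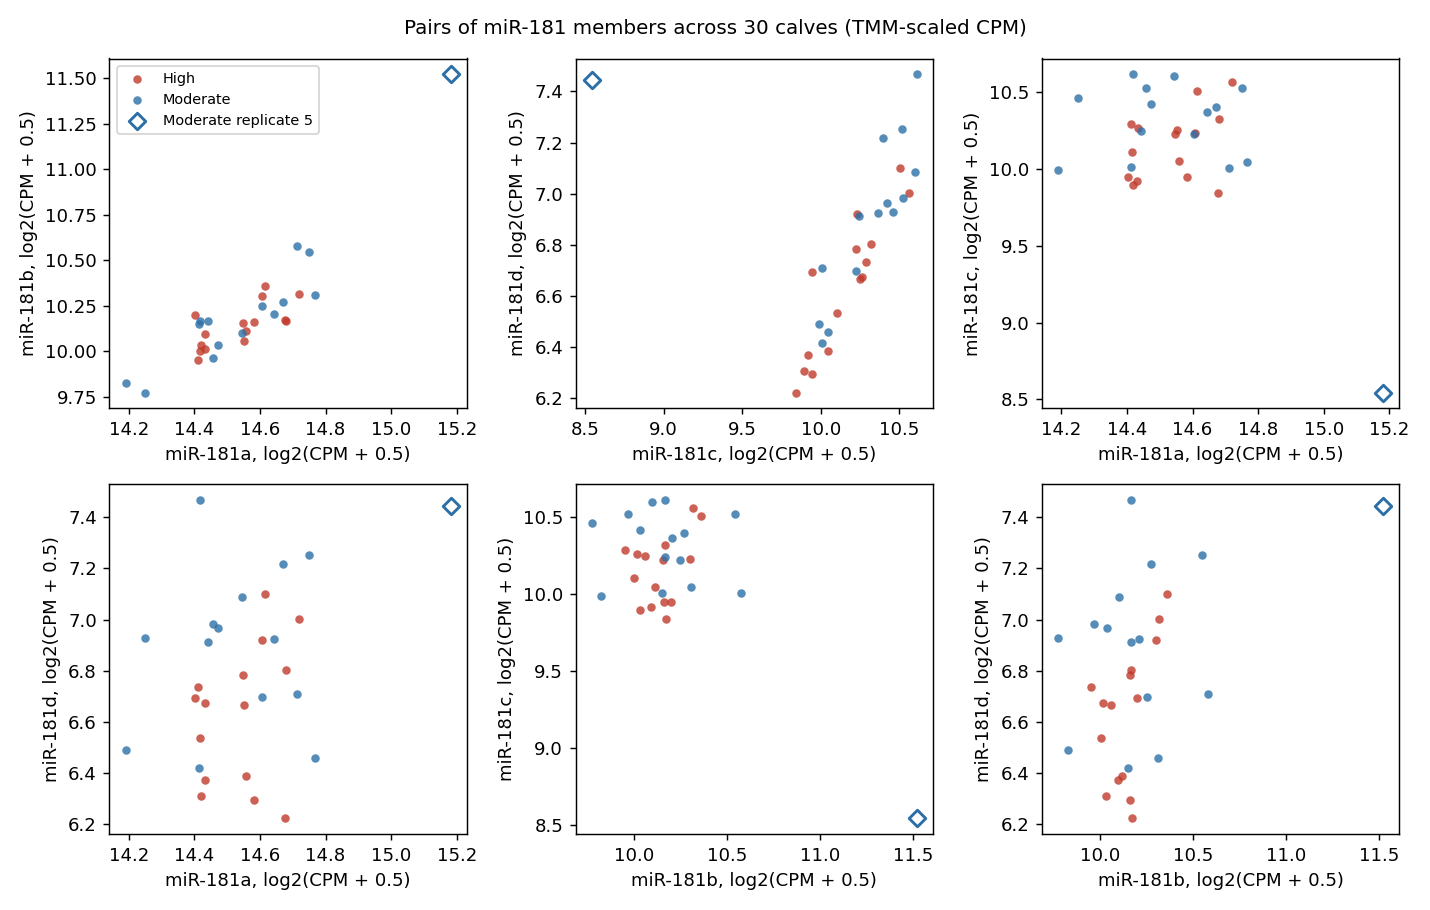
Each of the 6 pairs of members across 30 calves, both axes in log2(TMM-scaled CPM + 0.5), coloured by diet, with Moderate replicate 5 as a diamond. The hairpin partners (first 2 panels) lie along a line apart from the diamond, with r of 0.82 and 0.91 in the 29 other libraries; the 4 mixed pairs do not.

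The partner was also the closest miRNA of all. Likeness was measured as Spearman's rho of log2 levels after subtracting each diet's mean, over the 29 libraries and against the 386 other tested miRNAs, as a description. miR-181b was first for miR-181a and miR-181a first for miR-181b (rho 0.79), and miR-181d was first for miR-181c and miR-181c first for miR-181d (rho 0.88). Members from the other pair came far down these lists, from place 75 to place 218.

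After the partner, miR-181a was most like miR-6518 (rho 0.66, a miRNA at a mean of 1.06 CPM) and miR-665 (0.55). miR-181b was next most like miR-151-3p (0.67) and miR-665 (0.59). miR-181c was next most like miR-130a (0.61) and miR-26a (0.60), and miR-181d like miR-197 (0.68) and miR-26a (0.58). Of these 6 miRNAs, miR-665 differed with diet in limma without Moderate replicate 5 (log2 fold change -0.38, adjusted p = 0.00645; -0.30 and 0.0820 with it), and the other 5 did not pass in either fit. With all 30 libraries, miR-181a and miR-181b again held first place for each other (rho 0.79), while miR-181c had miR-26b first (0.66) and miR-181d in place 3 (0.64).

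Partners were also compared as a ratio within each library. The ratio of miR-181a to miR-181b was 21.1 ± 1.29 in High testes and 20.04 ± 2.54 in Moderate testes (SD, n = 15 each). It ran from 18.4 through a median of 21.3 to 22.9 in High testes and from 12.6 through 20.6 to 22.5 in Moderate testes. The log2 ratio differed by 0.09 (standard error 0.06; permutation p = 0.153, also 0.153 after adjustment over the 2 ratios), with 11 of 15 High libraries above the Moderate median. The lowest ratio was that of Moderate replicate 5, without which the difference was 0.04 (permutation p = 0.304).

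The ratio of miR-181c to miR-181d was 11.6 ± 0.93 in High testes and 10.2 ± 2.47 in Moderate testes. It ran from 9.58 through a median of 11.8 to 12.7 in High testes and from 2.15 through 11.01 to 12.1 in Moderate testes. The log2 ratio differed by 0.26 (standard error 0.16; permutation p = 0.0266, adjusted p = 0.0533), again with 11 of 15 High libraries above the Moderate median. The value of 2.15 was that of Moderate replicate 5, and the next lowest Moderate ratio was 8.87. Without that library the difference was 0.10 (standard error 0.05; permutation p = 0.0527, adjusted p = 0.105). Leaving out any 1 of 11 other libraries (High replicates 7 and 8, and Moderate replicates 3, 6, 7, 8, 10, 12, 13, 14 and 15) brought the adjusted permutation p under 0.05, to between 0.0255 and 0.0467, with differences of 0.27 to 0.28. The difference was 0.53 in the 12 libraries with like labels (exact permutation p = 0.0476, adjusted p = 0.0952), and 0.15 there without Moderate replicate 5 (exact permutation p = 0.0952, adjusted p = 0.190). It was 0.07 in the 18 libraries with unlike labels (exact permutation p = 0.296, adjusted p = 0.423) and 0.17 with the diet of the titles (permutation p = 0.425, adjusted p = 0.632).

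**Figure D5:**
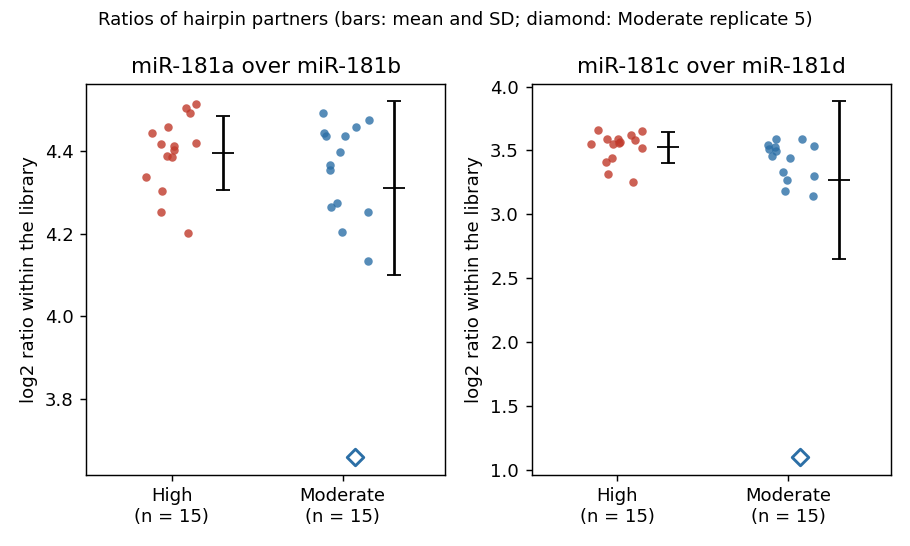
log2 ratio of hairpin partners within each library for 15 High and 15 Moderate calves, with mean and SD; axes do not start at 0. Apart from Moderate replicate 5 (diamond), the groups overlap closely in both panels.

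Among calves of 1 diet, miR-181a was one of the steadier of the 387 tested miRNAs. These span all levels, and the comparison was not made among abundant miRNAs alone. Its SD on the log2 scale was 0.15 over the 29 libraries, and 18.6% of the 387 tested miRNAs had a smaller one. The SD was 0.18 for miR-181b, 0.22 for miR-181c and 0.29 for miR-181d, beside a median of 0.25 over all tested miRNAs. With Moderate replicate 5 included, miR-181c had the largest SD of the 4, at 0.39.

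Markers of cell types that a testis sample can hold were read in the same limma fit. Of the 30 tested miRNAs in 8 lists (leukocyte, endothelial, smooth muscle, red blood cell, epithelial, striated muscle, neural and gonadal somatic), 0 passed, beside 4.91% of all tested. In the neural list, miR-124a and miR-124b had the same values, and miR-129 and miR-129-5p the same mean. The 30 and the neural median are thus not all from separate measurements. At an unadjusted p under 0.05 there were 4 of the 30, beside 21.2% of all tested miRNAs. edgeR and DESeq2 called 1 each, beside 6.98% and 13.4% of all tested. It was the muscle miRNA miR-499 (limma log2 fold change 0.57, adjusted p = 0.0638). Without Moderate replicate 5, miR-499 (0.41, limma adjusted p = 0.0127) and the leukocyte miRNA miR-146b (1.09, limma adjusted p = 0.0358) passed, both higher under High. In that fit 11.7% of all tested miRNAs passed. The leukocyte list is of interest because miR-181a is abundant in lymphocytes. Its median log2 fold change over 8 miRNAs was -0.04, and -0.09 without Moderate replicate 5. Its smallest p with all 30 libraries was that of miR-342 (-0.18, limma adjusted p = 0.102). Medians were 0.05 for the endothelial list, -0.13 for smooth muscle (miR-145 at -0.15) and 0.25 for red blood cells (miR-144 at 0.42). They were -0.27 for the epithelial list (miR-200a at -0.33), 0.16 for striated muscle, 0.04 for the neural list (miR-124a at -0.13) and 0.04 for gonadal somatic cells (miR-202 at 0.05). Of the 3 tested germ line miRNAs, 2 passed in limma, against 4.91% of all tested miRNAs, both higher under High: miR-34b (0.73, limma adjusted p = 0.0313) and miR-34c (0.96, limma adjusted p = 0.0260). DESeq2 also called 2 of the 3, and edgeR called 1, miR-34c (edgeR adjusted p = 0.0303, and 0.0591 for miR-34b). The part of any of these in the miR-181 values was not tested.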

How the data were processed

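Small RNA from the testes of 30 calves was sequenced, 1 library per calf, after TruSeq small RNA library preparation per the labels' protocols. Tools named by the submitters' processing notes are edgeR 3.5, R 3.4, cutadapt 2.6 and FastQC 0.11.8. No aligner, reference or build is named in them (not given in the sources used here). In the 1 table that the authors deposited, values are a normalized signal, CPM of a TMM-scaled library size, worked out from the values: low values are multiples of 1 step, and dividing by it gave whole reads for 95.3% of 18379 values above 0 (tolerance 0.02 read). Mature sequences were not used here, so other miRNAs with the same seed were not sought.

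Diet came from the diet characteristic; replicate numbers follow accession order and pair nothing. No 2 libraries agreed within sampling noise. limma 3.58.1 with a mean-variance trend was fitted on log2(value + 0.5) to the 387 miRNAs at 1 or more in at least 15 libraries, High minus Moderate, two-sided, with Benjamini-Hochberg adjustment and a threshold of 0.05. Fold changes on this scale understate changes of low miRNAs. Alternatives were edgeR 4.0.16 and DESeq2 1.42.0 on recovered reads (rounded for DESeq2), other pseudocounts, filters and scalings, left-out libraries, the diet of the titles, and subsets by label and depth. Ratios and correlations were tested by permutation with 100000 resamples, or exactly where a group held fewer than 10 libraries. Fits were also run on simulated counts (R 4.3.3), with means and spreads taken from the 29 libraries without Moderate replicate 5. The outcome is not given here, and the simulation holds no library like Moderate replicate 5.

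The miRNAs named are the 4 members, the 3 most like each, and the smallest p of each marker list; miR-10b, further members of the marker lists and the miRNA most like miR-181c in all 30 libraries were added after their values were seen. The members and lists were chosen with earlier results of these data known. The spread behind each p is that between calves.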

Additional observations from a re-analysis of the deposited data

Results flagged for a closer look

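Each diet's libraries were split into those whose title and characteristic give the same diet (6) and those where they differ (9), and 24 sets of values were examined, the 4 members and the 2 partner ratios in each. In 3 of them 1 library lay far from the rest, where chance alone gives about 1 in 20 sets. The sets are not independent, since each ratio shares values with its members, so that rate is only a guide. Moderate replicate 5 had the lowest miR-181c, at 373 CPM, and the lowest log2 ratio of miR-181c over miR-181d, at 1.10. High replicate 7 had the lowest log2 ratio of miR-181c over miR-181d among the 6 High libraries with like labels, at 3.31. It was not the lowest of all 15 High libraries, since High replicate 8, with unlike labels, was lower. The effect of diet did not pass a test of its difference between libraries with like and unlike labels for any member (limma interaction, adjusted p from 0.785 to 0.862).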

How the results depend on the processing

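No paired analysis was possible because the labels give no replicate numbers that calves of both diets share. With library totals, log2 fold changes turned positive for miR-181a (0.18), miR-181b (0.10) and miR-181c (0.17), and without Moderate replicate 5 as well, an alternative chosen after seeing the data, for miR-181a (0.0840) and miR-181b (0.0448). miR-181a was also at 0.0209 in the 18 libraries with unlike labels and in edgeR without Moderate replicate 5 (0.0178, chosen after seeing the data). miR-181c was at 0.15 with title diets and 0.13 in the 12 libraries with like labels. In those with like labels it was at -0.15 once Moderate replicate 5 was left out (chosen after seeing the data). miR-181d was below 0 in every setting run and passed in DESeq2 alone (-0.34), which was run only with all 30 libraries. Leaving out 1 library at a time gave -0.0581 to 0.0126 for miR-181a, -0.15 to -0.03 for miR-181b, -0.16 to -0.01 for miR-181c and -0.33 to -0.26 for miR-181d. It gave log2 ratio differences of 0.04 to 0.10 for miR-181a over miR-181b and 0.10 to 0.28 for miR-181c over miR-181d; the second passed in 11 of 30 such fits. miRNAs past the threshold numbered 19 in full and, with 1 library left out, 0 (without High replicate 5, 75 at an unadjusted p under 0.05) to 45 (without Moderate replicate 5), within 1.5 times of 19 in 16 of 30 fits. limma called 0 without a filter, with library totals, with title diets, and in the subsets with like and unlike labels (104, 59, 11, 43 and 58 at an unadjusted p under 0.05). It called 3 in libraries under 12 M reads, and DESeq2 called 52. With library totals, r was 0.86 for miR-181a with miR-181c, 0.62 for miR-181a with miR-181d, 0.62 for miR-181b with miR-181c and 0.83 for miR-181c with miR-181d. Without Moderate replicate 5 as well, r was 0.10 for miR-181a with miR-181c and 0.10 for miR-181a with miR-181d. It was 0.0399 for miR-181b with miR-181c, 0.23 for miR-181b with miR-181d and 0.90 for miR-181c with miR-181d. As deposited without that library, r was 0.13, 0.15, 0.0617, 0.26 and 0.91 for the same pairs. Of the 3 miRNAs most like miR-181c, 1 was kept with all 30 libraries. In the 24 libraries under 12 M reads, miR-181d differed by -0.31 (limma adjusted p = 0.217). The log2 ratio of miR-181c over miR-181d differed there by 0.25 (permutation p = 0.202, adjusted p = 0.405). With log10 depth as a covariate in all 30 libraries, miR-181d differed by -0.30 (limma adjusted p = 0.0868). The causes were not tested.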
